A study of Mus musculus with 8 samples.

Results

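Genes of fatty acid oxidation and targets of PPAR alpha were followed in mouse livers before and after partial hepatectomy (PHx), the surgical removal of part of the liver, which the rest of the organ then regrows. The set held 38 genes listed by name. Each was read by the probes whose transcript accession belongs to it, the brightest probe standing for the gene. All 38 genes, of 18316 that the array could name, had a probe, all 38 entered the tests, and all were well above background on all 8 arrays with no saturated spot.

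The study deleted Survivin (gene symbol Birc5), a protein that cells need to divide, and compared deleted with wild type livers at 0, 24, 36 and 48 h after PHx. Livers labelled Mxcre+ were taken as deleted and those labelled Mxcre- as wild type, with 1 array of total liver RNA for each genotype and time. All mice were of the strain 129/SV/B6, were bone marrow recipients after irradiation, and had then received poly(IC), so the Mxcre- livers carried these treatments too. Mx-Cre is driven by an interferon-responsive promoter, which poly(IC), a mimic of viral RNA, switches on. It is not restricted to hepatocytes, and the genotype of the donor marrow is not stated in the labels. Times are those in the sample titles, although a note on the treatment gives a later one. Age is not stated, sex is not given sample by sample, and whether an array held 1 liver or a pool is not stated in the labels.

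PPAR alpha is a nuclear receptor that fatty acids activate and that switches on genes for burning fat in the liver. Long-chain fatty acids enter mitochondria through the carnitine shuttle and are shortened there by beta-oxidation, very long and branched chains are shortened in peroxisomes, and microsomal Cyp4a enzymes oxidise the omega end of the chain. After hepatectomy the remaining liver takes up fat from the circulation and stores it for a time, and oxidation of fatty acids is one of its energy sources during regrowth.

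Levels below are log2 of the processed fluorescence signal minus the 75th percentile of the same array, so a value of 0 is that percentile. A level describes 1 probe and is not set against the level of another gene's probe. Birc5 stood at -2.75, -3.43, -1.52 and -1.15 in Mxcre+ livers at 0, 24, 36 and 48 h, against -0.21, -0.49, 1.60 and 5.09 in Mxcre- livers. Mxcre+ livers were thus 5.82-, 7.71-, 8.69- and 75.5-fold lower at the successive times, and the averaged log2 difference was -3.71 ± 0.67 (SE), with a limma adjusted p of 0.756. The mean log2 level of 4 Y-linked genes was -6.04, -1.31, -6.41 and -6.58 in Mxcre+ livers and -6.34, -0.80, -1.5 and -0.70 in Mxcre- livers. The 36 and 48 h pairs therefore set an Mxcre+ array with background-level Y-linked signal against an Mxcre- array with clear Y-linked signal, while in the earlier pairs both arrays were at background (0 h) or both had clear signal (24 h). The 0 and 24 h arrays lay on slide 1 and the 36 and 48 h arrays on slide 2, both genotypes on each. A change from 0 h to 36 or 48 h therefore cannot be told apart from a difference between slides. Nor can a change from 0 to 24 h be told apart from a difference that goes with Y-linked signal, such as sex. All 10 hepatocyte markers were above background on all arrays, with a summed log2 level of 11.6 to 11.9 in Mxcre+ livers and 11.8 to 11.9 in Mxcre- livers. In whole liver, fewer cells of a type and less RNA per cell cannot be told apart.

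Between the genotypes, the fatty acid oxidation genes were mostly somewhat higher in Mxcre+ livers, but no single gene passed the test. The log2 difference of Mxcre+ minus Mxcre- livers, averaged over the 4 times, was above 0 for 36 of the 38 genes, against 44% of all 14142 genes tested. Its median was 0.30 over the 38 genes and -0.03 over all genes. The peroxisomal genes were above 0 in 11 of 11 cases, the carnitine shuttle in 4 of 4, the thioesterases in 4 of 4, the omega-hydroxylases in 2 of 2 and mitochondrial beta-oxidation in 8 of 10. Acads (-0.17 ± 0.11) and Acaa2 (-0.01 ± 0.12) were the exceptions, the error being, as throughout, the standard error (SE) of the fit. At the successive times the median difference was 0.33, 0.14, 0.08 and 0.06 in mitochondrial beta-oxidation, 0.09, 0.40, 0.83 and 1.45 among the thioesterases, and 0.58, 0.27, 1.06 and 1.58 for the omega-hydroxylases. Of the 10 mitochondrial genes, 10, 6, 6 and 6 were above 0 at these times. The shares of all genes above 0 were 48.6%, 51.4%, 43.9% and 46%.

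limma's fit with time and genotype called 0 of 38 genes for genotype, as it called 0 of all 14142 genes, which is 0%. The smallest adjusted p of limma was 0.756 among the 38 genes and 0.420 among all genes. At an unadjusted p under 0.05, 12 of the 38 genes were higher and 0 lower in Mxcre+ livers, where 2.26% of all genes were higher and 4.29% lower. No gene had all 4 Mxcre+ arrays beyond all 4 Mxcre- arrays. Such separation occurred in 0.375% of all genes in the higher direction and 0.601% in the lower.

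Taken time by time, the median log2 difference of the 38 genes was 0.32, 0.10, 0.36 and 0.36 at 0, 24, 36 and 48 h, with 34, 24, 33 and 28 genes above 0. Among all genes the medians were -0.01, 0.01, -0.05 and -0.03. In these pairs, 13 of 38 genes were higher in Mxcre+ livers at all 4 times, against 6.82% of all genes, and 0 were lower at all 4, against 9.06%. With 1 array on each side, a difference at 1 time has no replicate check. Differences of 2-fold or more were seen in 2, 0, 7 and 10 genes at the 4 times, all with Mxcre+ higher. The share of all genes above background on both arrays that were 2-fold or more higher was 1.2%, 0.793%, 2.21% and 2.46%, and the share 2-fold or more lower was 2.47%, 1.18%, 2.36% and 3.22%. Within slide 1 (0 and 24 h) the median difference was 0.20 with 34 genes above 0, and within slide 2 (36 and 48 h) it was 0.40 with 30 genes above 0. The late difference exceeded the early one in 22 of 38 genes, and a few members were far apart at 36 or 48 h.

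**Figure D1:**
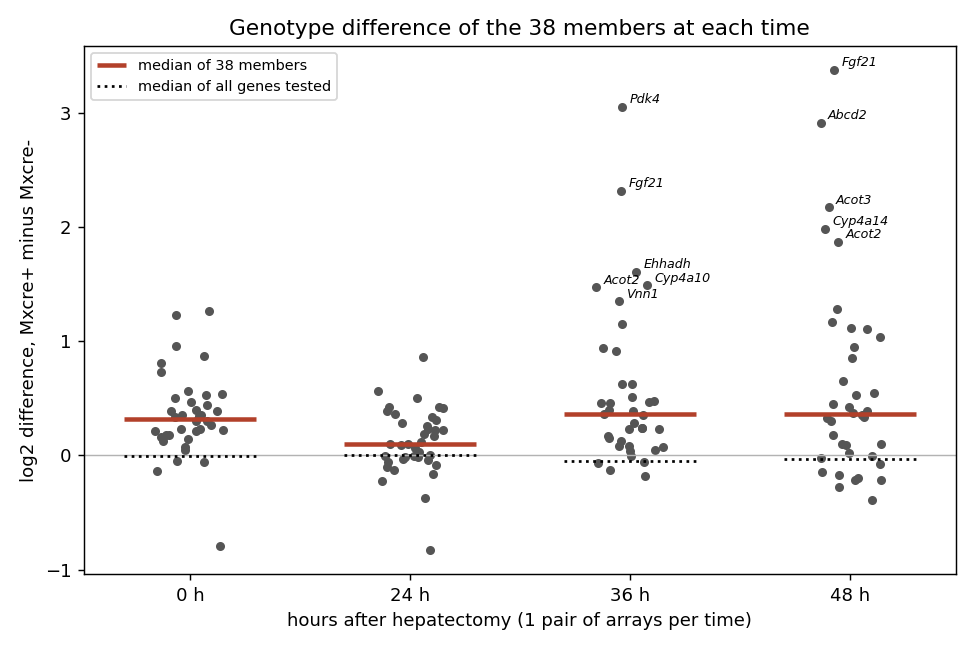
Log2 difference of Mxcre+ minus Mxcre- livers for each of the 38 genes at 0, 24, 36 and 48 h after hepatectomy, 1 pair of arrays per time, with a solid bar at the median of the 38 genes and a dotted line at that of all genes tested. Most points lie above 0 at 0, 36 and 48 h, and the largest differences, 3.05 for Pdk4 and 3.37 for Fgf21, are at 36 and 48 h.

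The pairs of arrays, both the early ones and the late ones that hold the largest differences, also differed in other transcripts. The medians over male-biased liver genes, Mxcre+ minus Mxcre-, were 0.35, -0.31, -0.87 and -2.95 on the log2 scale at 0, 24, 36 and 48 h, and those over female-biased liver genes were -0.05, -0.02, 0.53 and 1.01. The female-biased list includes Acot3, itself among the 38 genes. The summed level of the male-biased list was 7.91 to 9.31 in Mxcre+ livers and 8.90 to 9.60 in Mxcre- livers, and that of the female-biased list 9.46 to 10.48 in Mxcre+ livers and 9.12 to 10.66 in Mxcre- livers. The 10 neutrophil markers had medians of -3.18, -0.91, 1.56 and 2.25, with a summed level of 3.05 to 6.51 in Mxcre+ livers and 4.67 to 6.07 in Mxcre- livers. The 12 macrophage markers had medians of -0.75, -0.49, 0.85 and 0.28, with a summed level of 5.21 to 5.94 in Mxcre+ livers and 5.15 to 6.26 in Mxcre- livers. The 6 adipocyte markers had medians of -0.23, 0.42, -1.10 and -2.87, and their summed level ran from -1.65 to 1.08 in Mxcre+ livers and from -1.77 to 2.53 in Mxcre- livers. Only 2, 4, 3 and 3 of these 6 were above background on both arrays of a time. Adipoq, which defines fat cells, was above background on 2 arrays, those of Mxcre- livers at 36 and 48 h, at levels of -2.54 and -0.46. The 4 erythroid markers had medians of -0.45, -0.66, -0.59 and -0.56, with a summed level of 7.06 to 7.84 in Mxcre+ livers and 7.54 to 8.49 in Mxcre- livers, and 0 of 4 had an averaged difference above 0. The 11 T and NK cell markers had medians of -0.77, -0.09, -0.34 and -0.44, with a summed level of 0.57 to 1.34 in Mxcre+ livers and 0.49 to 1.78 in Mxcre- livers. Of these, 11, 7, 5 and 8 were above background on both arrays of a time. The hepatocyte markers had medians of 0.00, -0.02, -0.16 and -0.33. The part that sex or these cell types had in the differences of the oxidation genes was not tested. A fit with the Y-linked level as a covariate gave a median genotype difference of 0.19 with 32 of 38 genes above 0. The Y-linked level differed between genotypes mainly in the 36 and 48 h pairs, both on slide 2. For genotype differences, here and for single genes below, that fit therefore cannot tell sex apart from a genotype difference confined to the late pairs. For changes from 0 to 24 h it cannot tell sex apart from time, since both 24 h arrays had Y-linked signal and both 0 h arrays did not. The pairs of slide 1 alone gave a median of 0.20.

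After hepatectomy, with both genotypes fitted together, more oxidation genes were called lower than higher at 24 h. More were called higher than lower at 36 and 48 h, when the arrays lay on another slide than those of 0 h. At 24 h against 0 h, 1 gene was called higher (Hsdl2) and 4 lower (Ppara, Acaa1b, Hadh and Acot3), against 4.5% higher and 5.11% lower among all genes. At 36 h against 0 h, 11 genes were called higher and 1 lower (Hadh), against 7.89% and 8.3% of all genes. The 11 were Slc25a20 and Crat of the carnitine shuttle, Acadl, Hadhb and Eci1 of mitochondrial beta-oxidation, Ech1, Eci2 and Hsdl2 among the peroxisomal genes, the thioesterases Acot1 and Acot2, and Vnn1. At 48 h against 0 h, 5 were called higher (Crat, Eci1, Hsdl2, Acot1 and Acot2) and 2 lower (Acaa1b and Hadh), against 8.2% and 9.4% of all genes. The median log2 change of the 38 genes was 0.01, 0.52 and 0.22 at 24, 36 and 48 h, and that of all genes was -0.02, -0.06 and -0.07. Across the 3 comparisons 11 genes rose at 1 or more times, 4 fell, none did both, and 23 were not called. The matching share of all genes over the 3 comparisons together was not counted, so these totals have no background beside them. Markers of other cell types moved at the same times. Of 11 T and NK cell markers, 5, 8 and 6 were called lower at 24, 36 and 48 h, with median changes of -1.38, -1.29 and -0.92. Of 6 B cell markers, 0, 3 and 2 were called lower, with medians of -1.25, -1.54 and -1.04, and of 5 cholangiocyte markers 3 were called higher at each time, with medians of 1.27, 1.02 and 1.17. Of 6 adipocyte markers 1 was called higher at each time, with medians of 0.50, 0.79 and 1.34. Up to 4 of these 6 were not above background on an array. Of the 10 hepatocyte markers, 1, 1 and 2 were called lower, with medians of 0.04, -0.10 and -0.20. The part of these cell types in the changes of the oxidation genes was not tested.

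These calls rest on the spread within 8 arrays. Leaving out any 1 array, which also lowers the residual degrees of freedom, left 0 higher and 0 to 2 lower calls at 24 h, 0 to 2 higher and 0 to 1 lower at 36 h, and 0 to 3 higher and 0 to 1 lower at 48 h, while the estimates kept their sign. Without the filter on dim genes 0, 2 and 2 genes were called higher and 2, 0 and 0 lower at the successive times. Both 24 h arrays had Y-linked signal and both 0 h arrays did not, and with the Y-linked level as a covariate 0 genes were called at 24 h, 7 were called higher at 36 h and 0 lower at any time. Scaling arrays to their median instead of their 75th percentile moved the median change of all genes by 0.17 at 36 h and 0.14 at 48 h, and there called 13 and 7 of the 38 genes higher and 0 lower. By that scaling 58.7%, 72.3% and 65.3% of all calls at 24, 36 and 48 h were higher, against 46.8%, 48.7% and 46.6% by the 75th percentile.

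**Figure D2:**
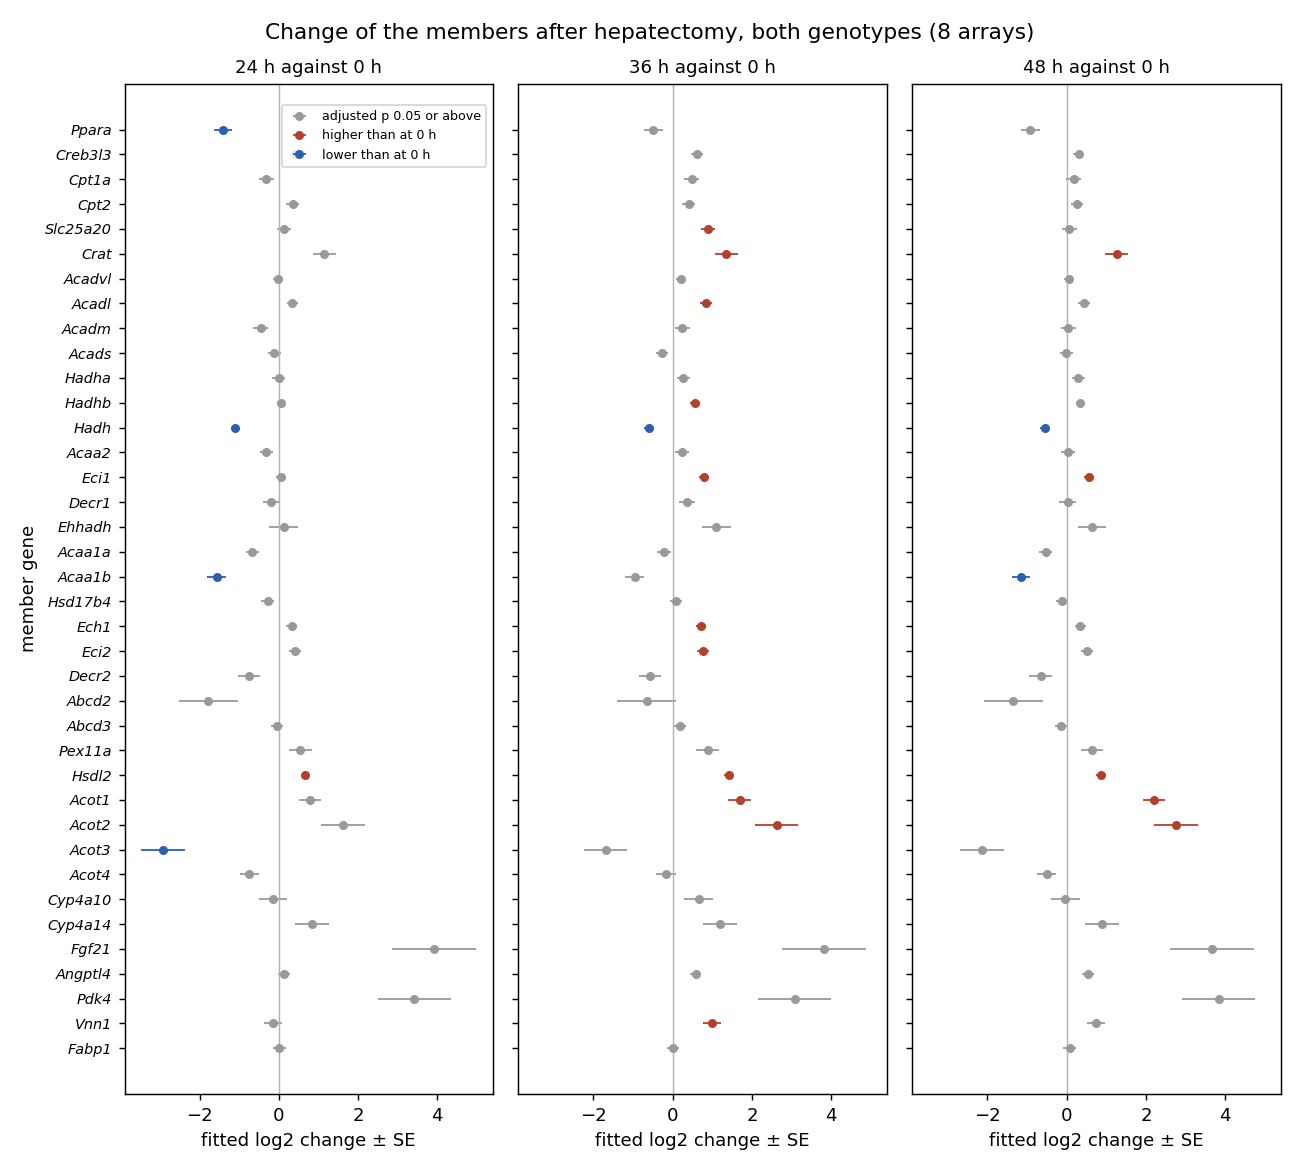
Fitted log2 change ± SE of each gene at 24, 36 and 48 h against 0 h, over both genotypes (8 arrays), in order of role. Red points were called higher and blue points lower at an adjusted p under 0.05 by limma, with 1, 11 and 5 genes higher and 4, 1 and 2 genes lower at the successive times.

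Between 48 and 36 h, both on slide 2, limma called 0 of the 38 genes, against 0.099% higher and 0.00707% lower among all genes. At an unadjusted p under 0.05 it had 0 of the 38 higher and 4 lower. Of all 14142 genes, 663 were higher and 605 lower at that unadjusted p. The median change was -0.24, with 7 of 38 genes above 0, against -0.02 over all genes. The genotype difference after surgery minus that at 0 h was called for 0 of the 38 genes by limma, against 0.156% higher and 0.0141% lower among all genes. At an unadjusted p under 0.05 it was lower in 1 of the 38 (Decr2, -0.86 ± 0.27 on the log2 scale, limma adjusted p = 0.698) and higher in 0. The shares of all genes at that unadjusted p were 2.45% lower and 4.18% higher. In each genotype alone, the median change of the 38 genes at 24, 36 and 48 h was -0.09, 0.52 and 0.14 in Mxcre+ livers, and 0.16, 0.55 and 0.25 in Mxcre- livers.

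**Figure D3:**
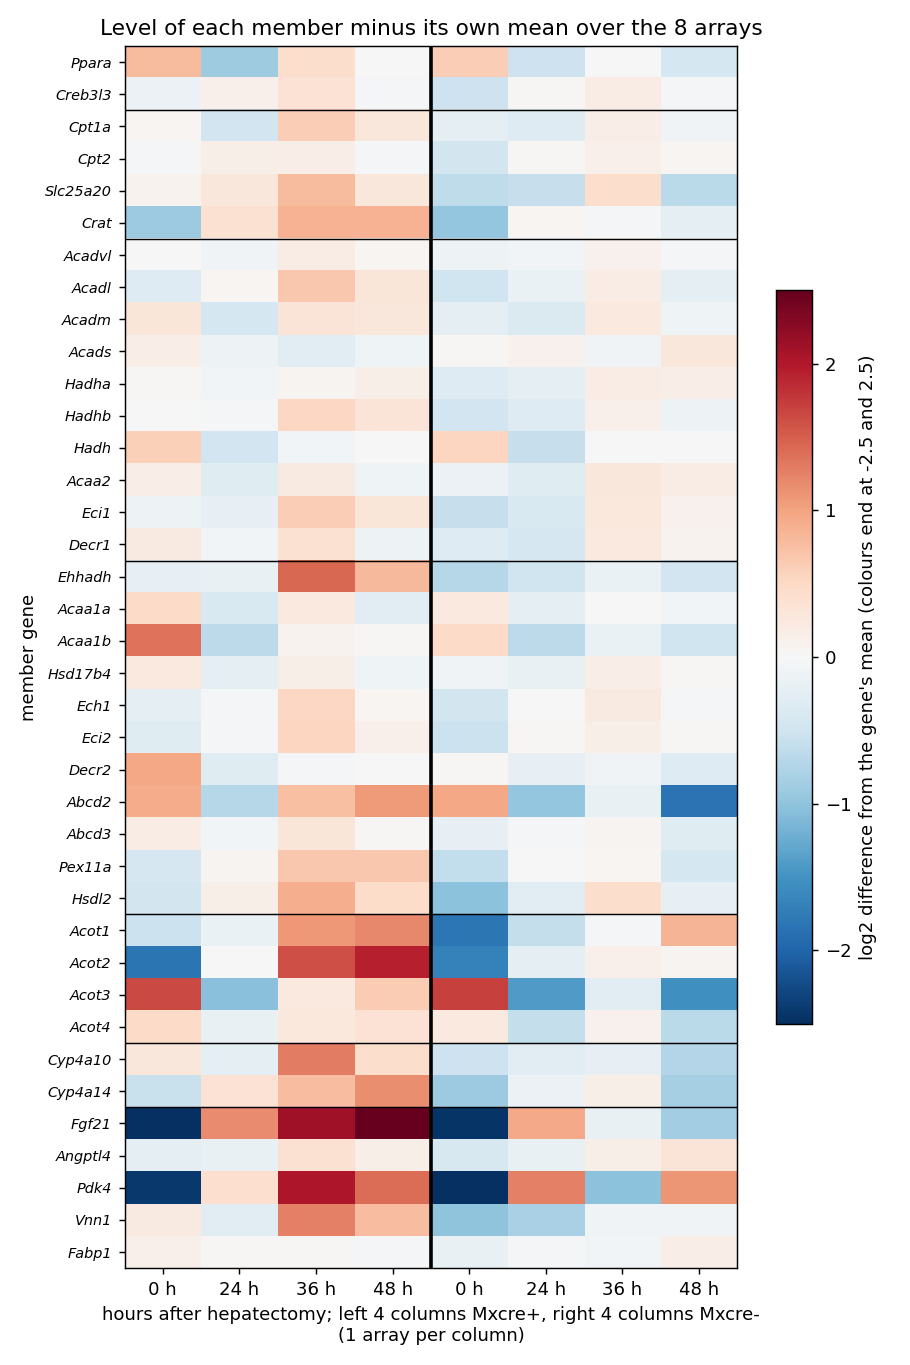
Log2 level of each of the 38 genes on each of the 8 arrays, as a difference from the mean of the gene over the arrays, with Mxcre+ livers left of Mxcre- livers and times from 0 to 48 h. Fgf21, Pdk4 and Acot2 are lowest at 0 h in both genotypes, and Acot3 is highest at 0 h.

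Among the regulators, the receptor gene itself was lower at 24 h after surgery. Ppara stood at 5.28, 3.61, 4.94 and 4.49 in Mxcre+ livers at 0, 24, 36 and 48 h, and at 5.12, 3.98, 4.49 and 4.07 in Mxcre- livers. Both 0 h arrays were above all 6 later arrays, and both 24 h arrays were below the 36 and 48 h arrays of the same genotype. Ppara fell at 24 h by limma, with a log2 change of -1.41 ± 0.24 (SE, 2.65-fold lower, adjusted p = 0.0351), while its changes at 36 h (-0.49 ± 0.24) and 48 h (-0.92 ± 0.24) were not called. Both 24 h arrays had Y-linked signal and both 0 h arrays did not. With the Y-linked level in the fit the fall of Ppara at 24 h was not called. Creb3l3, a transcription factor of the fasted liver that acts with PPAR alpha on Fgf21, had log2 changes of 0.42, 0.61 and 0.30 at 24, 36 and 48 h, none called. Its genotype difference was 0.16 ± 0.10, and that of Ppara was 0.17 ± 0.17.

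In the carnitine shuttle, Slc25a20 and Crat were called and the transferases Cpt1a and Cpt2 were not. Slc25a20, the carrier that moves acylcarnitines across the inner mitochondrial membrane, stood at 1.73, 1.92, 2.43 and 1.91 in Mxcre+ livers and at 1.00, 1.06, 2.07 and 0.96 in Mxcre- livers. Its highest arrays in each genotype were at 36 h, and Mxcre+ was higher at every time. The rise at 36 h was 0.88 ± 0.18 (limma adjusted p = 0.0403), and at 48 h the change was 0.07 ± 0.18. Its genotype difference of 0.73 ± 0.13 (1.65-fold) had a limma adjusted p of 0.756.

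Crat, which transfers short acyl groups between carnitine and CoA, stood at 2.51, 3.79, 4.28 and 4.29 in Mxcre+ livers against 2.44, 3.46, 3.37 and 3.19 in Mxcre- livers. All 6 arrays after surgery lay above both 0 h arrays, and the genotypes were nearly level at 0 h and 1.11 apart at 48 h. The rise was called at 36 h (1.35 ± 0.29, adjusted p = 0.0437) and at 48 h (1.26 ± 0.29, adjusted p = 0.0468) by limma, and its change of 1.15 ± 0.29 at 24 h was not called. Its genotype difference was 0.60 ± 0.21, and 0.18 with the Y-linked level in the fit. In the deposited value table the 36 h change had a limma adjusted p of 0.0521. Cpt1a, the rate-limiting step of entry into mitochondria, had a genotype difference of 0.23 ± 0.13 and log2 changes of -0.32, 0.48 and 0.18, none called.

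In mitochondrial beta-oxidation, 3 of 10 genes rose and 1 fell at 36 h, against 7.89% and 8.3% of all genes. Acadl, the long-chain acyl-CoA dehydrogenase, stood at 2.99, 3.36, 3.97 and 3.61 in Mxcre+ livers and at 2.81, 3.13, 3.50 and 3.07 in Mxcre- livers. It was higher in Mxcre+ at every time and highest at 36 h in both genotypes. By limma it rose by 0.83 ± 0.15 at 36 h (adjusted p = 0.0318), and its genotype difference was 0.35 ± 0.10, or 0.195 with the Y-linked level in the fit.

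Hadhb, the beta subunit of the trifunctional protein, stood at 4.94, 4.92, 5.47 and 5.28 in Mxcre+ livers against 4.48, 4.64, 5.08 and 4.83 in Mxcre- livers. Its 4 differences between genotypes lay within 0.29 to 0.46, one of the narrowest ranges among the genes higher at all 4 times. The genotype difference was 0.40 ± 0.08 (1.32-fold, limma adjusted p = 0.756), and the rise at 36 h was 0.57 ± 0.12 (adjusted p = 0.0413). Its partner Hadha, the alpha subunit, had genotype differences of 0.35, 0.17, -0.13 and -0.01 at the 4 times and was called at none of the times.

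Eci1, an enoyl-CoA isomerase for unsaturated fatty acids, stood at 5.77, 5.70, 6.52 and 6.20 in Mxcre+ livers and at 5.33, 5.52, 6.17 and 6.02 in Mxcre- livers. Mxcre+ was higher at each time, and the 36 and 48 h arrays of both genotypes were above both of the 24 h arrays. It rose by 0.79 ± 0.13 at 36 h (limma adjusted p = 0.0288) and by 0.56 ± 0.13 at 48 h (adjusted p = 0.0485). With the mean of all probes per gene, the limma adjusted p at 48 h was 0.0507. Eci1 has 1 probe, so its own values were unchanged there and only those of other genes moved.

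Hadh, the short-chain 3-hydroxyacyl-CoA dehydrogenase, went the other way, at 6.09, 5.02, 5.42 and 5.52 in Mxcre+ livers and 6.04, 4.92, 5.49 and 5.50 in Mxcre- livers. The genotypes lay within 0.10 of each other at each time, and both 0 h arrays were above all later arrays. Hadh was called lower at all 3 times, with log2 changes of -1.09 ± 0.12, -0.60 ± 0.12 and -0.55 ± 0.12 and limma adjusted p of 0.0206, 0.0360 and 0.0383. With arrays scaled to their median, its changes at 36 and 48 h were -0.43 and -0.41 and were not called. The other 6 genes of the step (Acadvl, Acadm, Acads, Hadha, Acaa2 and Decr1) were called at no time.

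Among the peroxisomal genes, Hsdl2 was called higher at all 3 times. Hsdl2, a peroxisomal dehydrogenase-like protein, stood at 2.19, 2.79, 3.56 and 3.1 in Mxcre+ livers against 1.63, 2.37, 3.09 and 2.45 in Mxcre- livers. Every array after surgery was above the 0 h array of its genotype, 36 h was highest in both, and Mxcre+ was higher by 0.42 to 0.65 at each time. By limma its changes were 0.67 ± 0.12, 1.42 ± 0.12 and 0.87 ± 0.12, with adjusted p of 0.0393, 0.0162 and 0.0183, and its genotype difference was 0.53 ± 0.09 (adjusted p = 0.756).

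The bifunctional enzyme Ehhadh stood at 4.21, 4.24, 5.86 and 5.24 in Mxcre+ livers and at 3.70, 3.93, 4.26 and 3.95 in Mxcre- livers. Mxcre+ was 3.04-fold higher at 36 h and 2.43-fold at 48 h, while the Mxcre- arrays stayed between 3.70 and 4.26. Averaged over the times the difference was 0.93 ± 0.25, not called by limma (adjusted p = 0.756), and its change at 36 h, 1.10 ± 0.36, had an adjusted p of 0.0966. With the Y-linked level in the fit the genotype difference was 0.42.

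Acaa1b, a peroxisomal thiolase, stood at 6.64, 4.63, 5.36 and 5.32 in Mxcre+ livers against 5.77, 4.63, 5.12 and 4.79 in Mxcre- livers. Both 0 h arrays were above all later arrays, and the 24 h arrays were lowest in each genotype. It fell at 24 h (-1.57 ± 0.23, limma adjusted p = 0.0299) and at 48 h (-1.15 ± 0.23, adjusted p = 0.0367), the last with an adjusted p of 0.0546 when arrays were scaled to their median. Acaa1a is a near-identical copy whose transcript the probes may share. Its 3 probes differed in genotype difference (0.03 for the brightest, 0.43 and 0.34 for the others), and the brightest was called at no time, so values of this pair are uncertain.

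Ech1 and Eci2 handle unsaturated acyl-CoAs. Ech1 stood at 4.52, 4.72, 5.27 and 4.80 in Mxcre+ livers and at 4.30, 4.74, 4.99 and 4.71 in Mxcre- livers. Eci2 stood at 6.68, 6.95, 7.52 and 7.12 in Mxcre+ livers and at 6.46, 7.01, 7.12 and 7.02 in Mxcre- livers. Both were highest at 36 h in each genotype, and the genotypes overlapped. At 36 h they rose by 0.72 ± 0.13 and 0.75 ± 0.15, with limma adjusted p of 0.0332 and 0.0390, and their genotype differences were 0.14 ± 0.09 and 0.16 ± 0.11.

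Pex11a, which promotes peroxisome division, stood at 5.59, 6.06, 6.67 and 6.68 in Mxcre+ livers against 5.37, 6.0, 6.05 and 5.57 in Mxcre- livers. The genotypes were 0.06 apart at 24 h and 1.11 apart at 48 h. The transporter Abcd2, which brings very long-chain acyl-CoAs into peroxisomes, stood at -0.64, -2.27, -0.80 and -0.50 in Mxcre+ livers and at -0.59, -2.53, -1.74 and -3.42 in Mxcre- livers. Its genotypes were level at 0 h, and at 48 h Mxcre+ was 7.52-fold higher, through a low Mxcre- array and an Mxcre+ array near its 0 h level. A second, dimmer Abcd2 probe, above background on 5 of 8 arrays, gave a genotype difference of 0.76 against 1.01 for the first. Neither Pex11a (0.50 ± 0.20) nor Abcd2 (1.01 ± 0.53) was called for genotype by limma, and with the Y-linked level in the fit the differences were 0.12 for Pex11a and -0.010 for Abcd2.

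The acyl-CoA thioesterases, which release free fatty acids from CoA in the cytosol (Acot1), mitochondria (Acot2) and peroxisomes (Acot3 and Acot4), went different ways, Acot1 and Acot2 rising and Acot3 falling. These genes are a cluster of close copies, so that a probe may also read a neighbour. Acot1 stood at 3.52, 3.88, 5.15 and 5.26 in Mxcre+ livers and at 2.25, 3.46, 4.0 and 4.91 in Mxcre- livers. All arrays after surgery were above the 0 h array of the same genotype, and 48 h was highest in both. It rose by 1.69 ± 0.28 at 36 h (3.22-fold, limma adjusted p = 0.0299) and by 2.20 ± 0.28 at 48 h (4.60-fold, adjusted p = 0.0160). Mxcre+ was higher at each time, by 1.26, 0.43, 1.15 and 0.35, averaging 0.80 ± 0.20.

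Acot2 stood at -3.11, -1.31, 0.31 and 0.66 in Mxcre+ livers against -2.97, -1.53, -1.16 and -1.22 in Mxcre- livers. Both 0 h arrays were lowest, and the genotypes separated after 24 h, with Mxcre+ 2.77-fold higher at 36 h and 3.66-fold at 48 h. Its rise was 2.62 ± 0.55 at 36 h (adjusted p = 0.0414) and 2.76 ± 0.55 at 48 h (adjusted p = 0.0345) by limma. Normexp background correction with quantile normalisation gave smaller changes of 0.96 and 1.10 that were not called. The genotype difference was 0.86 ± 0.39, and -0.0013 with the Y-linked level in the fit.

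Acot3 stood at 0.61, -2.09, -0.80 and -0.41 in Mxcre+ livers and at 0.67, -2.47, -1.31 and -2.58 in Mxcre- livers. The 0 h arrays were highest and nearly equal, and the Mxcre- array at 48 h was 4.50-fold below its Mxcre+ counterpart. Acot3 fell by limma at 24 h, with a log2 change of -2.92 ± 0.55 (7.56-fold lower, adjusted p = 0.0426). Acot3 is also one of the 10 female-biased liver genes, which had a median change of -1.29 at 24 h, with 5 called lower and 8 below 0, and their part in the Acot3 call was not tested. With the Y-linked level in the fit its change at 24 h was -1.63 and not called, and its genotype difference was 0.061, against 0.75 ± 0.39 without that term. Acot4 stood at 2.30, 1.64, 2.09 and 2.19 in Mxcre+ livers against 2.06, 1.23, 1.94 and 1.15 in Mxcre- livers, and was called at no time. Mxcre+ was higher by 0.15 to 0.41 at the first 3 times and by 1.04 at 48 h, averaging 0.46 ± 0.17, or 0.27 with the Y-linked level in the fit.

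Cyp4a10 and Cyp4a14, the omega-hydroxylases of fatty acids and classical PPAR alpha targets, were higher in Mxcre+ livers at all 4 times by their brightest probe. Cyp4a10 stood at 5.97, 5.43, 6.96 and 6.11 in Mxcre+ livers and at 5.16, 5.40, 5.47 and 4.94 in Mxcre- livers. The 24 h arrays were level and the 36 h Mxcre+ array was highest, 2.80-fold above Mxcre-. All 3 probes of Cyp4a10, which may also read its close copies, gave a genotype difference of 0.87 to 0.97, but at 24 h the other 2 probes were lower in Mxcre+ livers, at 3.30 against 3.34 and at -0.32 against -0.15 in Mxcre- livers.

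Cyp4a14 stood at 6.57, 7.48, 7.90 and 8.28 in Mxcre+ livers against 6.22, 6.98, 7.27 and 6.30 in Mxcre- livers. Its level was higher at each later time in Mxcre+ livers, whereas the Mxcre- array at 48 h was back near 0 h, leaving Mxcre+ 3.95-fold higher. The genotype differences of 0.87 ± 0.26 and 0.87 ± 0.30 each had a limma adjusted p of 0.756, and neither gene was called at any time. With the Y-linked level in the fit they were 0.46 for Cyp4a10 and 0.35 for Cyp4a14, and without the 48 h pair that of Cyp4a14 was 0.49.

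Among the secreted and fuel-switching targets, Fgf21 and Pdk4 had the widest ranges of all 38 genes. Fgf21, a hormone that the fasted liver secretes, stood at -2.66, 1.76, 2.71 and 3.1 in Mxcre+ livers and at -1.87, 1.54, 0.40 and -0.27 in Mxcre- livers. Both 0 h arrays were far below the rest, the 24 h arrays were 0.22 apart, and the genotypes then parted, Mxcre+ being 4.98-fold higher at 36 h and 10.4-fold at 48 h. The second Fgf21 probe stood at -2.86, 1.35, 2.52 and 2.88 in Mxcre+ livers and at -2.67, 1.07, 0.33 and -0.57 in Mxcre- livers, the same genotype being higher at each time as by the first probe. At 0 h Mxcre+ was 1.73-fold lower by the first probe. Changes of 3.92 ± 1.06, 3.82 ± 1.06 and 3.68 ± 1.06 at 24, 36 and 48 h missed the threshold with limma adjusted p of 0.0837, 0.0705 and 0.0755, as did the genotype difference of 1.28 ± 0.75 (adjusted p = 0.762). On slide 1 alone the genotype difference was -0.29, and with the Y-linked level in the fit it was -0.39.

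Pdk4, the kinase that shuts off pyruvate dehydrogenase so that fat is burned in place of glucose, stood at -0.26, 2.58, 4.18 and 3.56 in Mxcre+ livers against -0.60, 3.41, 1.13 and 3.26 in Mxcre- livers. Every array after surgery was above both 0 h arrays. The genotypes differed most at 36 h, where Mxcre+ was 8.29-fold higher, and at 24 h Mxcre+ was 1.78-fold lower. Its changes of 3.42 ± 0.92, 3.08 ± 0.92 and 3.84 ± 0.92 had limma adjusted p of 0.0823, 0.0815 and 0.0510. Without the 36 h pair its genotype difference was -0.061, against 0.72 ± 0.65 with all arrays.

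Vnn1, a pantetheinase that responds to PPAR alpha, stood at 1.86, 1.38, 2.90 and 2.40 in Mxcre+ livers and at 0.63, 0.82, 1.55 and 1.55 in Mxcre- livers. Mxcre+ was higher by 0.56 to 1.35 at each time, and the lowest Mxcre+ array, at 24 h, still lay below the 2 highest Mxcre- arrays. Its genotype difference of 1.00 ± 0.16 (2.00-fold) had the smallest unadjusted p of the 38 genes, with a limma adjusted p of 0.756, and it rose at 36 h by 0.98 ± 0.23 (adjusted p = 0.0497). The call at 36 h was lost in the deposited value table, with normexp correction and with the mean of all probes per gene, at limma adjusted p of 0.0549, 0.0511 and 0.0514. Vnn1 has 1 probe, so its own values were unchanged in the last of these, where only those of other genes moved. Fabp1, the fatty acid binding protein of hepatocytes, and Angptl4, a secreted inhibitor of lipoprotein lipase, were called at no time and differed between genotypes by 0.06 ± 0.11 and 0.06 ± 0.10.

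**Figure D4:**
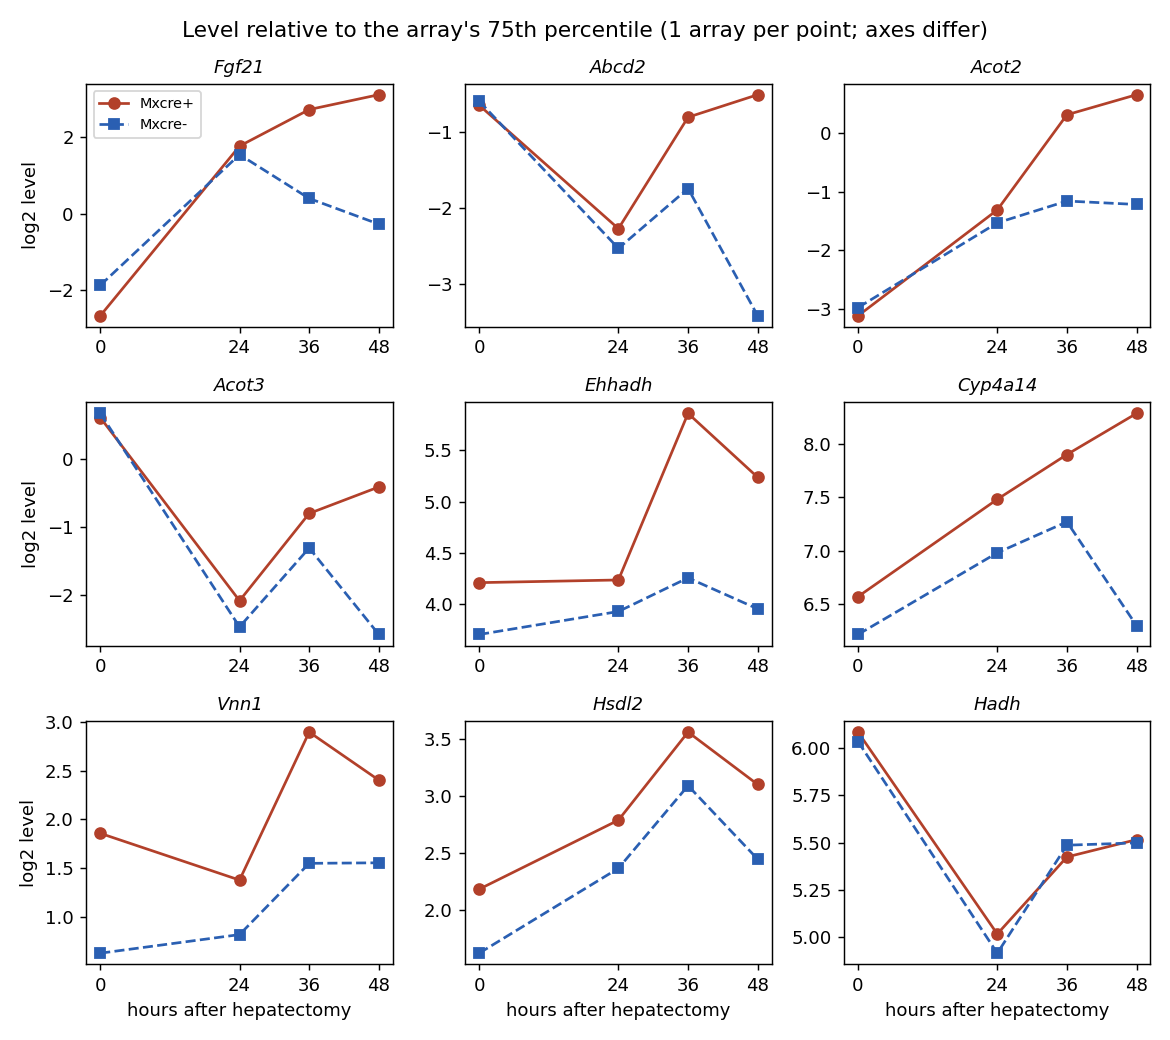
Log2 levels at 0, 24, 36 and 48 h of 9 genes described in the text, each with its own axis, with Mxcre+ and Mxcre- livers as separate lines of 1 array per point. The genotypes part after 24 h for Fgf21, Acot2 and Abcd2, and both are lower at 24 h than at 0 h for Hadh and Acot3.

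The 15 genes whose levels on each array are not given had genotype differences of -0.17 to 0.31 with a median of 0.10, and 13 of 15 were above 0. None of the 15 was called at 24, 36 or 48 h, with median changes of -0.11, 0.24 and 0.04. Of these, Decr2, an auxiliary reductase of unsaturated acyl-CoAs, had the lowest changes at each time, -0.76, -0.57 and -0.66.

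PPAR alpha binds as a pair with RXR to a direct repeat of a hexamer with 1 base between, written AGGTCANAGGTCA. The promoters (250 bases before to 50 after the gene start, RefSeq, GRCm38.p6) of 29 of the 38 genes were searched on both strands with up to 2 mismatches in the 12 fixed letters. A match stood in 4 of these 29 promoters (13.8%), and in 4.4% of the promoters of all 27025 genes. With up to 1 mismatch the shares were 3.45% (1 of 29) and 0.644%, and with none 0% and 0.0481%. With up to 3 mismatches they were 27.6% and 27.3%. The 4 promoters are shown 5′ to 3′ on the strand of the gene, with the match in capitals, since these genes include a called one (Slc25a20) and uncalled ones.
Fabp1: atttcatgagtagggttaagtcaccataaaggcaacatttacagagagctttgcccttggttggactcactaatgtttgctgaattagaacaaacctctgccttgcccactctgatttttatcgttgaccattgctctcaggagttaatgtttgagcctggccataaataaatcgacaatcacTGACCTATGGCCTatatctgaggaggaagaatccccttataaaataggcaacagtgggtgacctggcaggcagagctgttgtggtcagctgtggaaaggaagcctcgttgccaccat
Slc25a20: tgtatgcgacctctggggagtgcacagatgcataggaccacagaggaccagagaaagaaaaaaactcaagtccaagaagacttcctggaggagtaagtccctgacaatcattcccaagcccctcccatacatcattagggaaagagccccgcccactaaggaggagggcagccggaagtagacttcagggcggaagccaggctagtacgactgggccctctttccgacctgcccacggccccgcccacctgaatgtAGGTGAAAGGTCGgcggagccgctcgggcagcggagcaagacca
Acot4: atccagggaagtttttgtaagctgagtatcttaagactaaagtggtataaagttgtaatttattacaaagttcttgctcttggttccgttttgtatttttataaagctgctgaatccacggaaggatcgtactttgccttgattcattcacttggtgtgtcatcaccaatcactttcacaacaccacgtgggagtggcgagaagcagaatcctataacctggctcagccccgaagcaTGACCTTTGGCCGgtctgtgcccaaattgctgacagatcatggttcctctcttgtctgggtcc
Creb3l3: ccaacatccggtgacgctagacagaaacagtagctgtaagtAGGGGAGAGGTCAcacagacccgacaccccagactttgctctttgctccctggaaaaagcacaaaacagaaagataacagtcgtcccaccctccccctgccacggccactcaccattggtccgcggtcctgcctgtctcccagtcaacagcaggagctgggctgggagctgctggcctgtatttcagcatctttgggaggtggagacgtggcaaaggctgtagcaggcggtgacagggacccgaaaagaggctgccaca
The Fabp1 promoter (chr6:71199629-71199928 on the plus strand) holds the match with 1 mismatch, on the opposite strand and 67 bases upstream of the start. That of Slc25a20 (chr9:108661886-108662185 on the plus strand) holds it on the strand of the gene, 6 bases downstream. That of Acot4 (chr12:84038129-84038428 on the plus strand) holds it on the opposite strand, 13 bases upstream, and that of Creb3l3 (chr10:81092542-81092841 on the minus strand) on the strand of the gene, 209 bases upstream, each of these 3 with 2 mismatches. Among these 4 genes Slc25a20 rose at 36 h, and Fabp1, with the closest match, had log2 changes of 0.02, 0.01 and 0.08. A match in letters does not show binding.

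Neighbouring pathways were read from further gene lists, none of which had a gene called for genotype by limma, as no gene on the array was. Their counts over time stand against 4.5%, 7.89% and 8.2% of all genes called higher and 5.11%, 8.3% and 9.4% called lower at 24, 36 and 48 h. The 24 h changes in these lists cannot be told apart from a difference that goes with Y-linked signal, such as sex. With the Y-linked level in the fit, 1 of all genes was called higher at 24 h and 0 lower. For ketone body synthesis and export, 8 of 9 genes were above 0 in genotype difference, with a median of 0.30, among them the dehydrogenase Bdh1 (0.34 ± 0.09) and the thiolase Acat1 (0.42 ± 0.12), both with a limma adjusted p above the threshold. Genes of this list were called in both directions after surgery. The monocarboxylate transporters Slc16a6 and Slc16a1 rose at 24 h by 2.37 ± 0.19 and 1.62 ± 0.17 (limma adjusted p = 0.0182 and 0.0209). In the other lists, genotype differences were above 0 in 12 of 15 lipolysis and droplet genes (median 0.21). Among PPAR alpha partners 17 of 26 were above 0 (median 0.03), and among uptake genes 9 of 16 (0.02). Other mitochondrial genes had 11 of 19 above 0 (0.02), further peroxisomal genes 12 of 27 (-0.01) and other microsomal genes 5 of 12 (-0.14). Among all genes 44% were above 0, with a median of -0.03.

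Among 15 genes of lipolysis and the lipid droplet, 4, 7 and 4 rose at 24, 36 and 48 h and 1 fell at each time. Cidec, a lipid droplet protein, stood at -0.97, 5.18, 6.36 and 6.41 in Mxcre+ livers against -0.69, 5.37, 4.95 and 3.96 in Mxcre- livers, with both 0 h arrays far below the rest. Its change at 24 h was 6.11 ± 0.74 (limma adjusted p = 0.0239), and that of Plin2, the droplet coat protein, was 2.67 ± 0.16 (adjusted p = 0.0168). Cidec also differed by 1.41 and 2.45 between genotypes at 36 and 48 h, Mxcre+ being higher. Lipc, hepatic lipase, was the gene that fell, with a change of -1.76 ± 0.18 at 24 h (adjusted p = 0.0201).

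Of 16 genes of fatty acid uptake and activation, 2 rose and 5 fell at 24 h, 2 rose and 2 fell at 36 h, and 2 rose and 5 fell at 48 h. Fabp4 (2.81 ± 0.19) and Fabp2 (1.49 ± 0.20) were the risers and Slc27a5, a bile acid and fatty acid ligase, was among those that fell (-1.5 ± 0.16), all by limma at 24 h with adjusted p of 0.0181, 0.0257 and 0.0218. Fabp4 is also made by fat cells, whose markers Cfd and Plin1 were below background on some arrays. Of 6 adipocyte markers, 4, 4 and 5 had changes above 0 at 24, 36 and 48 h, with 1 called higher at each time. The part of fat cells in the Fabp4 rise was not tested.

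Of 19 other mitochondrial acyl-CoA and electron transfer enzymes, 8 were called lower and 0 higher at 24 h, 6 lower and 1 higher at 36 h, and 4 lower and 2 higher at 48 h. Among those that fell were Echs1, the short-chain enoyl-CoA hydratase (-0.85 ± 0.14 at 24 h, limma adjusted p = 0.0323), and Acad10 (-1.54 ± 0.14, adjusted p = 0.0182). Of 27 further peroxisomal genes 0 rose and 3 fell at 24 h, 1 rose and 2 fell at 36 h, and 2 rose and 3 fell at 48 h. Catalase (Cat) fell at 24 h, with a log2 change of -1.21 ± 0.15 (adjusted p = 0.0250 by limma).

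Of 12 other microsomal omega-oxidation genes, 0 rose and 3 fell at 24 and at 36 h, and 1 rose and 4 fell at 48 h. Cyp4f14 was lower at 24 h by limma (-1.65 ± 0.22, adjusted p = 0.0261). Cyp4a31, a close copy of Cyp4a10 whose probe may read both, had a genotype difference of 0.94 ± 0.34 (limma adjusted p = 0.756). Over the 12 genes the median genotype difference was -0.14, with 5 above 0. The highest difference of this list at 0 h (2.54) was also the highest of the male-biased liver list. Its lowest differences at 36 and 48 h (-4.87 and -6.30) were also the lowest of that list. The part of sex in the differences of the microsomal list was not tested. Of 26 partners and regulators of PPAR alpha, 2, 3 and 2 fell at 24, 36 and 48 h, against 5.11%, 8.3% and 9.4% of all genes, and 0 rose. They included the coactivator Ppargc1b (-1.37 ± 0.24 at 24 h, limma adjusted p = 0.0369) and the mitochondrial deacetylase Sirt3 (-0.94 ± 0.13, adjusted p = 0.0276).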

How the data were processed

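Total liver RNA was labelled with Cy3 and read on 8 one-colour Agilent arrays, 1 per genotype and time. Per the file headers, the deposited signal is a fluorescence intensity, background-subtracted and detrended by Feature Extraction 10.7.3.1 (10.7 per the submitters' processing notes) and not scaled between arrays. The deposited value table holds log2 values, each column matching its own array (r of at least 0.999 across probes) with the same median in all, 5.51. It served as an alternative.

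Unflagged spots were averaged per probe, 41056 of 41174 probes were kept, and 26839 were named through RefSeq accessions. The brightest probe stood for a gene. Genes above background on at least 2 arrays (14142) were fitted with limma 3.58.1 in R 4.3.3: time plus genotype (3 residual degrees of freedom), and a model with a changed difference after surgery (2). P-values were adjusted by Benjamini-Hochberg over all genes and called under 0.05. They measure the spread between these arrays once time and genotype are taken out. The scripts were checked on simulated data. Between 60.2% and 66.0% of spots were well above background, and the number of arrays limits the precision. Values on all arrays are given for genes called in a comparison, for the 12 with the smallest unadjusted p for genotype, and for those 2-fold or more apart at a time. Other lists name up to 4 genes, by smallest unadjusted p at 24 h or for genotype. The alternatives changed the value table, background correction (on median signals, since mean signals are not in these files), scaling, filter, probe rule, flagged spots, variance trend, Y-linked covariate, slide and arrays. The genes and lists were chosen with earlier results of these data known. Promoters of Crat, Acaa2, Decr1, Hsd17b4, Abcd2, Cyp4a10, Cyp4a14, Angptl4 and Vnn1 were not used here. Results of a gene in the ketone body list are not reported here.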

Additional observations from a re-analysis of the deposited data

Results flagged for a closer look

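Fabp1, the liver fatty acid binding protein, was singled out because its changes after surgery ran in opposite directions in the genotypes. Against 0 h its log2 changes at 24, 36 and 48 h were -0.09, -0.10 and -0.18 in Mxcre+ livers and 0.12, 0.12 and 0.34 in Mxcre- livers. The mean change in Mxcre+ minus that in Mxcre- livers was -0.32. All 3 changes of a genotype were taken against the same 0 h array, and at 0 h Mxcre+ was 0.30 higher. The direction rule itself is no test; limma's test of the changed difference gave an adjusted p of 0.914. It was the only 1 of the 38 genes with this pattern, which 661 of 14142 genes (4.67%) also had.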

How the results depend on the processing

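No paired analysis was possible because each genotype and time had 1 array and the labels carry no replicate numbers; time as a factor already sets the arrays of a time against each other. The median genotype difference of the 38 genes stayed between 0.19 and 0.40, 30 to 37 genes were above 0 and 0 were called under every alternative run. Single differences turned sign with the Y-linked covariate (Fgf21 -0.39, Pdk4 -0.082, Acot2 -0.0013, Abcd2 -0.010), on slide 1 alone (Fgf21 -0.29, Pdk4 -0.24) and without the 36 h pair (Pdk4 -0.061; the other pairs left out gave up to 1.23), 7 of 270 checks of named genes. The cause was not tested.

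Counts of calls over time moved more. Normexp gave 4 higher at 24 h, 3 lower at 36 h and 11 higher at 48 h. Without the filter on dim genes 0, 2 and 2 genes were higher and 2, 0 and 0 lower at the successive times. With genes above background on all 8 arrays, or with a variance trend, 2 were higher at 24 h, 2 lower at 36 h and 4 lower at 48 h. The Y-linked covariate left 0 higher at 24 h, 7 higher at 36 h and 0 lower at any time. The deposited table gave 8 higher and 1 lower at 48 h, and median scaling 0 lower at 36 and 48 h. Leaving out each array gave 0, 0 to 2 and 0 to 3 higher and 0 to 2, 0 to 1 and 0 to 1 lower at the successive times; each such fit has fewer arrays. No named change over time turned sign. The changed difference could not be fitted without a 0 h array. For all genes, calls at 24 h numbered 637 higher and 723 lower, against 1099 and 1050 with normexp, 1097 and 1051 with the trend, 263 and 303 without the filter, and 1 and 0 with the covariate. At 36 h the 1116 and 1174 became 499 and 440 without the filter and 579 and 462 with the covariate. At 48 h the 1159 and 1330 became 758 and 782 without the filter and 650 and 557 with the covariate. Leaving out 1 array took all calls away in some fits of 24 and 36 h, the lowest count at 48 h being 65 higher and 21 lower. Median scaling gave 1834 and 702 at 36 h and 1615 and 860 at 48 h.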
